A study of Rattus norvegicus with 10 samples.

Results

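The genes described are 34 that a cell uses to divide: the cyclins and kinases that start mitosis, the proteins of the spindle and of the kinetochore, the checkpoint that waits for the chromosomes to attach, and the machinery that splits the cell. They were measured in mammary tumours of female Sprague-Dawley rats, an outbred strain, induced with 100 mg/kg of the carcinogen 7,12-dimethylbenz(a)anthracene (DMBA) by mouth. Of the 34 genes, 31 had a probe set annotated to that gene alone on the Affymetrix Rat Genome 230 2.0 array, and the expression of Tpx2, Nek2 and Ndc80 was not analysed here. Where a gene had several probe sets, the one brightest on average over the 10 arrays stood for it, and all 31 lay above the limit of 5.15 on the log2 scale under which the dimmest 40% of probe sets were left out. The tumours carry the names 31D3, 32D1, 37I1, 50I1 and 52I4. The total tumour group (n = 5) was collected at sacrifice, at an age of 19 weeks, and the biopsy group (n = 5) came from the same tumours at 12 weeks, as a needle core of 0.7 cm by 2.5 mm taken when a tumour had reached 2 cm3. The series text speaks of needle cores at both moments, and the sample labels, followed here, call the late sample the total tumour. The labels give the treatment of both groups as none, and the series text says that tumours of one histological grade were chosen. The comparison asked how a tumour at the end differed from its own early biopsy.

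In dividing cells the transcripts of these genes accumulate in the G2 phase and in mitosis and are low in resting cells, so their summed level is widely read as the share of cells in cycle. The transcription factor complex of MuvB, B-Myb and Foxm1 activates them late in the cycle, and in resting cells the DREAM complex, which holds the same MuvB core with a pocket protein, represses them. Both bind promoters through a short element called CHR, and the factor NF-Y binds CCAAT boxes that lie near it. In bulk samples such as these, fewer dividing cells and less RNA per cell cannot be told apart.

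The promoters of 4 genes are shown as examples of where these elements lie. They are the 250 bases before the RefSeq start of each gene (build GRCr8, 5′ to 3′ on the strand of the gene). Capitals mark the CHR letters TTTGAA and the CCAAT box, each searched on both strands, and the marked letters do not overlap.
Ccnb1 (chr2:33655226-33655475, minus strand): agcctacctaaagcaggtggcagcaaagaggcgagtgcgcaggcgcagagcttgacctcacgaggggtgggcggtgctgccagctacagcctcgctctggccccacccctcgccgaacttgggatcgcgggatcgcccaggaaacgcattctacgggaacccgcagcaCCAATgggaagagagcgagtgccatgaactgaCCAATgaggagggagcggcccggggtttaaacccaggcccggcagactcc
Cdc20 (chr5:137255800-137256049, minus strand): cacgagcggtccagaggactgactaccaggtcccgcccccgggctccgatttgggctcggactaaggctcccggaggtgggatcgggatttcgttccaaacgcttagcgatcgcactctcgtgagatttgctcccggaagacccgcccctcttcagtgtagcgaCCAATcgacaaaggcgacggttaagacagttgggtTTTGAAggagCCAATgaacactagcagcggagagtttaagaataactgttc
Plk1 (chr1:186147408-186147657, plus strand): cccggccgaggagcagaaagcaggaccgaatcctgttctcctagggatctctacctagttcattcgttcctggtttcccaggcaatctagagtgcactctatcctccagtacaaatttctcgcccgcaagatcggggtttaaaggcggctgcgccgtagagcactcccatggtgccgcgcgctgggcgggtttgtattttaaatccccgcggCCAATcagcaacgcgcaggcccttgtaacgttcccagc
Cdk1 (chr20:19265043-19265292, plus strand): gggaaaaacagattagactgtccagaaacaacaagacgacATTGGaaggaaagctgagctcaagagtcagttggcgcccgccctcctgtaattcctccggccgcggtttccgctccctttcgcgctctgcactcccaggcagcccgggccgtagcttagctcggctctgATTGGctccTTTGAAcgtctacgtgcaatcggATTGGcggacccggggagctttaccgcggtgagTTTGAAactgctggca

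The cyclin gene Ccnb1 had a pair of CCAAT boxes, starting 82 and 50 bases before the start. In the promoter of Cdc20, which activates the ligase that ends mitosis, a CHR lay 51 bases before the start, between CCAAT boxes at 86 and 41 bases. Cdk1, the kinase that drives mitosis, had CHR matches at 72 and 16 bases and CCAAT boxes, read on the other strand, at 210, 81 and 49 bases. The promoter of the mitotic kinase Plk1 held 1 CCAAT box, at 38 bases, and no CHR match in this window. Of the 34 genes, 27, among them Nek2 and Ndc80, had a promoter in the table, and Ccna2, Aurkb, Tpx2, Pbk, Ube2c, Foxm1 and Racgap1 did not. A CCAAT box was present in 21 of the 27 (77.8%), against 34.3% of 27457 promoters of the same length. The other 6, of Aurka, Bub1, Bub1b, Mad2l1, Ndc80 and Kif2c, held neither element in these bases. More than 1 box was present in 15 (55.6%), against 9.77% of all. The CHR letters were present in 12 (44.4%), against 16.0% of all, and all 12 also held a CCAAT box, a combination found in 5.76% of all promoters. With the 50 bases after the start included, 19 of the 27 (70.4%) held the CHR letters, against 18.1%. Among the promoters of 80 other genes of mitosis, 30 (37.5%) held a CHR and 47 (58.8%) a CCAAT box. Of 38 promoters of DNA replication genes, 4 (10.5%) held a CHR and 22 (57.9%) a CCAAT box. A match of letters is a description and does not show binding.

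The mitosis and spindle genes were higher in the total tumour than in the biopsy in 31D3, 50I1 and 52I4, and lower in 32D1 and 37I1. Their mean log2 signal in the total tumours was 7.55 in 31D3, 8.54 in 32D1, 7.22 in 37I1, 8.93 in 50I1 and 8.47 in 52I4. In the biopsies of the same tumours it was 6.40, 9.11, 7.89, 8.03 and 7.42. The groups overlapped over most of their range, and the biopsy of 31D3 was the lowest array and the biopsy of 32D1 the highest. The total tumour minus its biopsy came to 1.15 in 31D3, 0.90 in 50I1 and 1.05 in 52I4, that is 2.22-fold, 1.86-fold and 2.07-fold. It came to -0.57 in 32D1 and -0.67 in 37I1, that is 0.672-fold and 0.630-fold. Over the 5 tumours the mean difference was 0.37 (SD 0.91, SE 0.41, n = 5), less than 1 SD from 0. Every tumour mattered to this mean, which was 0.18 without 31D3, 0.20 without 52I4, 0.24 without 50I1, 0.61 without 32D1 and 0.63 without 37I1. The pairing of 50I1 rests on its label. Over the tested probe sets, the deviations of its total tumour and biopsy from their group means correlated at -0.21. The median over 10793 genes tested was 0.0039.

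**Figure D1:**
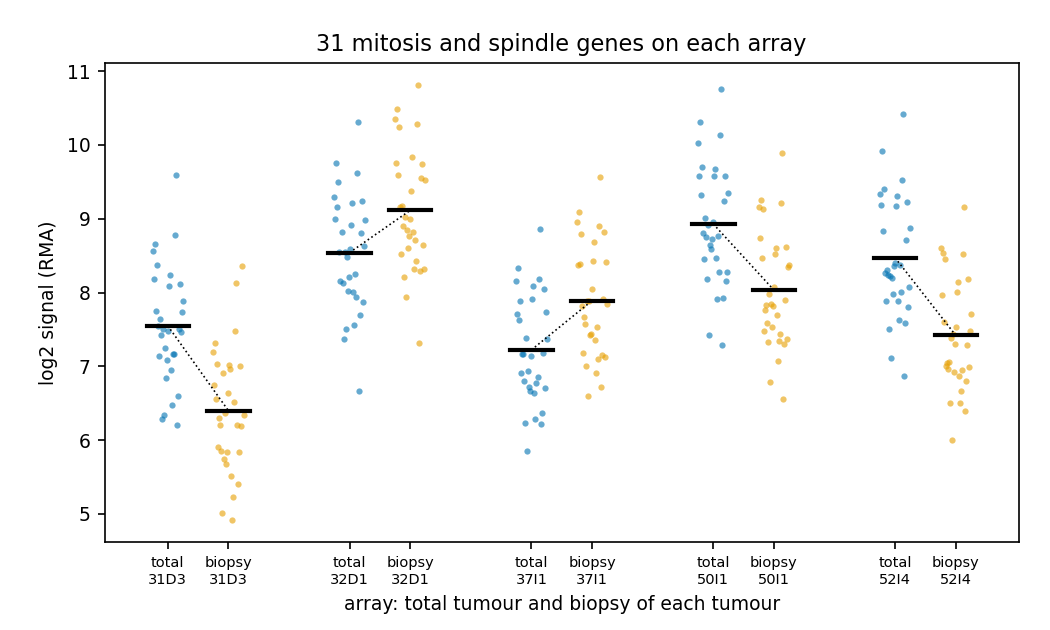
Log2 signal (y axis) of 31 mitosis and spindle genes on each of 10 arrays (x axis), with the total tumour in blue beside the biopsy of the same tumour in orange. Points are genes, bars are means over the genes and dotted lines join the means of a tumour, which are higher in the total tumour for 31D3, 50I1 and 52I4 and lower for 32D1 and 37I1.

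The spread between tumours was smaller among the total tumours than among the biopsies. The mean over the genes had an SD of 0.72 among the total tumours and of 0.99 among the biopsies, and spanned 1.71 (3.26-fold) among the total tumours and 2.71 (6.56-fold) among the biopsies. The SD was larger among the biopsies for 30 of 31 genes, where 59.2% of all genes tested had this order. This difference in spread was not tested. The order of the tumours also changed. Among the total tumours it ran from 50I1 over 32D1, 52I4 and 31D3 to 37I1, and among the biopsies from 32D1 over 50I1, 37I1 and 52I4 to 31D3. In the total tumours 32D1 and 52I4 lay 0.07 apart, and in the biopsies 50I1 and 37I1 lay 0.14 apart, the smallest steps in each order.

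Single genes followed these orders, which come from the mean over the same genes, closely. Total tumour 50I1 was the highest of its group for 29 of 31 genes (16.7% of all genes), except Birc5 and Kif2c, and total tumour 37I1 the lowest for 28 (23.8% of all genes), except Aurka, Foxm1 and Kif2c. Biopsy 32D1 was the highest for 30 genes (24.0% of all genes) and biopsy 31D3 the lowest for 30 (25.3% of all genes), except Kif2c in both. Only Bub1b and Ttk had a value under the limit of 5.15, both in the biopsy of 31D3, at 5.02 and 4.92.

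Within a tumour nearly all genes differed in one direction. In 31D3, 29 of 31 were higher in the total tumour, where 50.4% of all genes were, and 29 by more than 0.5 (15.5% of all genes). In 50I1, 30 were higher (49.1% of all genes), all of these by more than 0.5 (6.60%). In 52I4 all 31 were higher (50.1% of all genes), 30 of them by more than 0.5 (9.93%). In 32D1, 30 were lower (51.4% of all genes), 19 of them by more than 0.5 (9.78%). In 37I1 all 31 were lower (50.4% of all genes), 27 of them by more than 0.5 (6.67%). The pattern of higher in 31D3, 50I1 and 52I4 and lower in 32D1 and 37I1 was shown by 29 of 31 genes, and by 5.96% of all genes. Its signs are those of the mean over these same 31 genes, which favours them in this count. Kif2c and Foxm1 were the exceptions. Members of one pathway are not independent of each other, so these counts describe 5 pairs of samples and not 31 separate results.

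The size of the difference varied more between genes in 31D3 than elsewhere. The SD over the genes was 0.51 in 31D3, 0.27 in 50I1, 0.26 in 52I4, 0.23 in 32D1 and 0.20 in 37I1. In 31D3 it includes Kif2c and Foxm1, at -0.62 and -0.0027, far under the mean of 1.15 there. Pbk had the highest difference of the set in 31D3, 50I1 and 52I4, at 1.94, 1.41 and 1.71. The lowest differences were those of Mki67 in 32D1, at -1.05, and of Cdc20 in 37I1, at -0.94. The tumour means held 89.3% of the sum of squares of the 31 by 5 differences, where those over all genes tested held 0.954%.

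**Figure D2:**
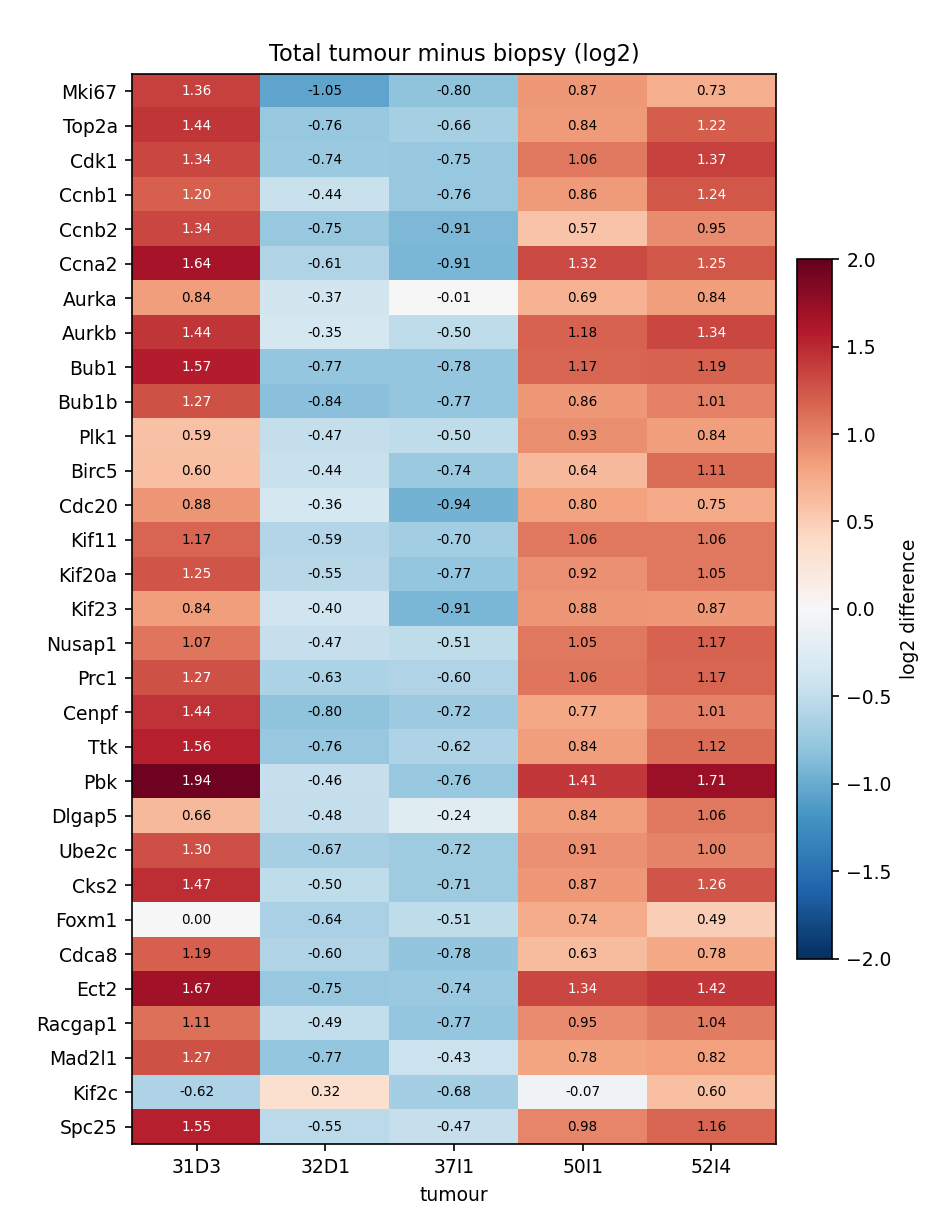
Log2 difference, total tumour minus biopsy, of 31 genes (rows) in 5 tumours (columns), red for higher and blue for lower in the total tumour. The columns 31D3, 50I1 and 52I4 are red and 32D1 and 37I1 blue, except for Kif2c and, in 31D3, Foxm1.

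No gene of the set passed the test over all probe sets. In limma, with the tumour as a block, 0 of 31 genes and 0 of 18625 probe sets (0%) had an adjusted p under 0.05, and the adjusted p of the 31 genes lay between 0.846 and 0.995. At an unadjusted p under 0.05 there were 0 of the 31 genes and 1133 of 18625 probe sets, and 1013 probe sets with the paired test that the study names, which also left 0 after adjustment. The mean difference was above 0 for 30 of 31 genes, where 51.2% of all genes were, with a median of 0.38 and a range from -0.09 (Kif2c) to 0.77 (Pbk). The SE of a gene lay between 0.211 and 0.457. For all 31 genes the values of the groups overlapped, as they did for 99.6% of all genes. With 1 tumour left out the mean difference moved by over 1.5 times for 29 of the 31 genes, and it turned sign for 4. With 5 pairs an exact sign-flip permutation test cannot give less than 0.0625 (two-sided), and the lowest value among the 31 genes was 0.25, reached by Aurka, Aurkb, Nusap1 and Pbk.

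**Figure D3:**
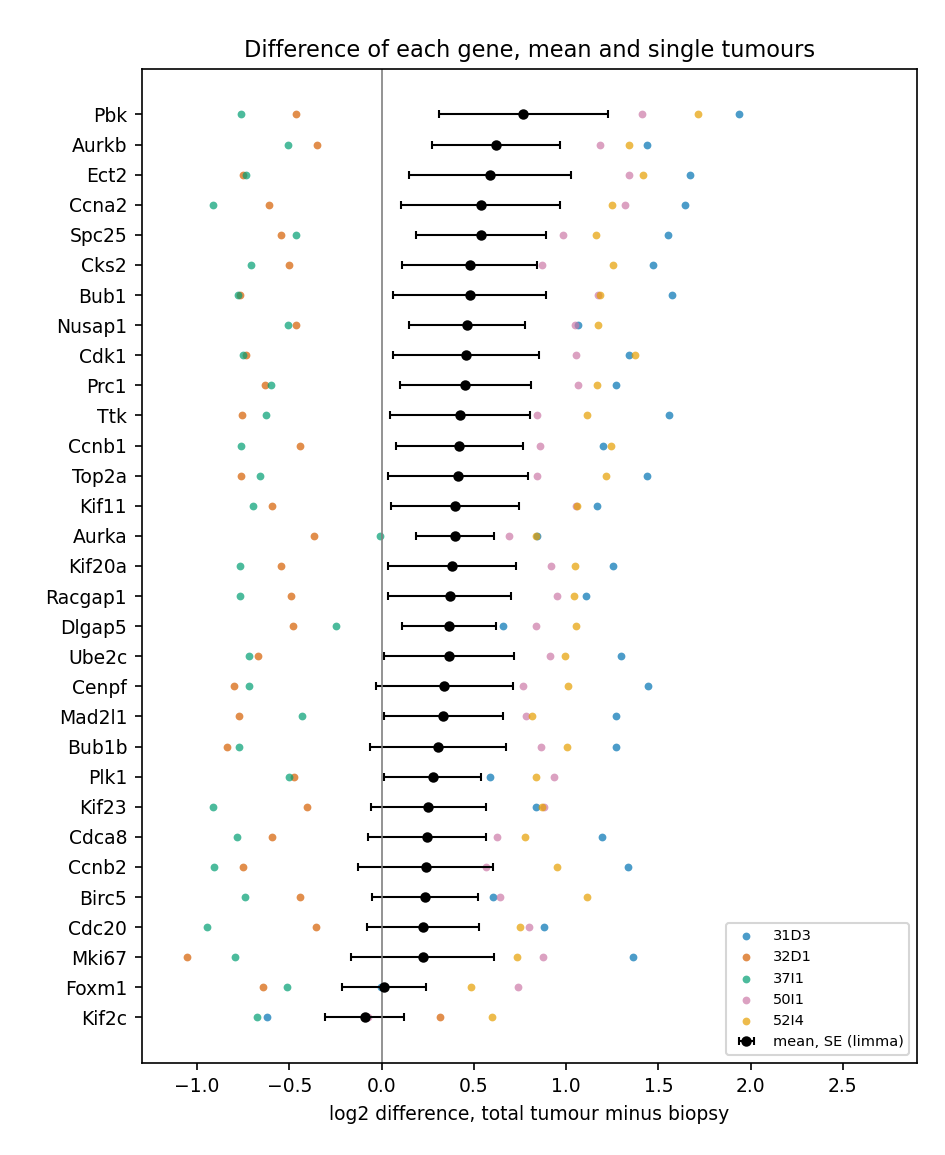
Log2 difference, total tumour minus biopsy (x axis), of 31 genes (y axis, ordered by the mean), with coloured points for the 5 tumours and black points for the mean with its SE from limma. The means lie between -0.09 and 0.77 while the points of a gene fall into a higher and a lower cluster, apart from Kif2c and Foxm1.

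Among the cyclins and their kinase, Cdk1 had log2 signals of 8.65, 9.75, 8.34, 10.31 and 9.91 in the total tumours 31D3, 32D1, 37I1, 50I1 and 52I4, against 7.31, 10.49, 9.09, 9.26 and 8.54 in their biopsies. The total tumours thus lay above their biopsies in 3 pairs and below in 2, with a mean difference of 0.46 (SE 0.397; adjusted p = 0.894 in limma). Ccnb1, the B-type cyclin that activates Cdk1, had 7.75, 9.15, 7.62, 9.33 and 8.84 in the total tumours in the same order, against 6.55, 9.59, 8.38, 8.47 and 7.597 in the biopsies. Its mean difference was 0.42 (SE 0.344), and its other probe set had the same sign in each tumour. The mean difference was 0.24 for Ccnb2, a related B-type cyclin, 0.54 for Ccna2, the cyclin of S and G2 phase, and 0.48 for Cks2, a small partner of the kinase. The 5 genes together differed by 1.40, -0.61, -0.81, 0.93 and 1.21 in 31D3, 32D1, 37I1, 50I1 and 52I4. Ccnb2 turned to -0.04 with 31D3 left out.

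Of the proliferation marker Mki67, which coats mitotic chromosomes, the log2 signal was 8.56, 9.29, 8.16, 10.03 and 9.33 in the total tumours, against 7.20, 10.35, 8.96, 9.16 and 8.60 in the biopsies. The differences between its pairs, from -1.05 in 32D1 to 1.36 in 31D3, exceeded its mean difference of 0.22 (SE 0.388; adjusted p = 0.949 in limma), which was -0.061 without 31D3. Top2a, the topoisomerase that untangles sister chromatids, had 8.18, 8.998, 7.71, 9.58 and 9.18 in the total tumours, against 6.74, 9.76, 8.37, 8.74 and 7.96 in the biopsies. Its mean difference was 0.42 (SE 0.378), with the same 3 tumours higher, and its second probe set agreed in sign in all 5.

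The mitotic kinases outside the checkpoint showed the same split. Aurka, the kinase of the spindle poles, had 7.13, 8.15, 7.17, 8.46 and 7.88 in the total tumours, against 6.29, 8.52, 7.18, 7.77 and 7.04 in the biopsies. It was nearly level in 37I1, at -0.01, and its mean difference was 0.40 (SE 0.211; adjusted p = 0.846 in limma; exact sign-flip permutation p = 0.25). Plk1, which acts from mitotic entry to cytokinesis, had 7.4997, 8.55, 7.38, 8.91 and 8.22 in the total tumours, against 6.91, 9.02, 7.89, 7.98 and 7.38 in the biopsies. In 31D3 it was higher by 0.59, while the mean of the 31 genes was higher by 1.15 there. Pbk, a mitotic serine/threonine kinase, had 7.16, 8.24, 6.78, 8.76 and 8.38 in the total tumours, against 5.23, 8.71, 7.54, 7.35 and 6.66 in the biopsies. Its mean difference of 0.77 (SE 0.457; adjusted p = 0.854 in limma) was the highest of the set, and the pairs ran from -0.76 in 37I1 to 1.94 in 31D3.

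Aurkb, Birc5 and Cdca8 encode parts of the chromosomal passenger complex, which corrects faulty attachments. Aurkb, its kinase, had 7.64, 8.82, 7.17, 9.01 and 8.30 in the total tumours, against 6.20, 9.18, 7.67, 7.83 and 6.96 in the biopsies. The mean difference of Aurkb was 0.62 (SE 0.349; adjusted p = 0.846 in limma). Birc5, survivin, had 6.35, 7.502, 5.85, 7.42 and 7.11 in the total tumours, against 5.75, 7.94, 6.59, 6.78 and 5.996 in the biopsies. Both were higher in the total tumour in 31D3, 50I1 and 52I4, but Birc5 by 0.60 in 31D3 where Aurkb was higher by 1.44. Cdca8, borealin, had a mean difference of 0.24 (SE 0.320), which was 0.0069 without 31D3, and that of Birc5, 0.23 (SE 0.288), was 0.015 without 52I4.

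For the spindle checkpoint, Mad2l1, which inhibits Cdc20 until chromosomes are attached, had 7.47, 7.88, 6.70, 8.16 and 7.80 in the total tumours, against 6.19, 8.65, 7.13, 7.37 and 6.99 in the biopsies. It was higher in the total tumour in the same 3 pairs, with a mean difference of 0.33 (SE 0.321), and its other 2 probe sets agreed in sign in each tumour. The checkpoint kinases Bub1 and Ttk had mean differences of 0.48 and 0.43, and Bub1b, which encodes BubR1, one of 0.31 that was 0.065 without 31D3. The 4 checkpoint genes together differed by 1.42, -0.78, -0.65, 0.92 and 1.03 in 31D3, 32D1, 37I1, 50I1 and 52I4.

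Cdc20 and Ube2c work with the anaphase-promoting complex, the ubiquitin ligase that ends mitosis. Cdc20 had 7.25, 8.48, 6.94, 8.65 and 8.19 in the total tumours, against 6.37, 8.84, 7.88, 7.85 and 7.44 in the biopsies. Its difference of -0.94 in 37I1 was the lowest of any gene of the set there, and its mean difference was 0.23 (SE 0.302). Its second bright probe set gave -0.84 in 37I1 and a mean of 0.43, and the mean over all its probe sets was 0.13. Ube2c, the enzyme that hands ubiquitin to the complex, had a mean difference of 0.36 (SE 0.353).

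Motors and binding proteins of the spindle were read by Kif11, Nusap1 and Dlgap5. Kif11, the kinesin that pushes the poles apart, had 6.85, 8.02, 6.72, 8.59 and 7.98 in the total tumours, against 5.68, 8.61, 7.42, 7.53 and 6.92 in the biopsies. The mean differences were 0.40 (SE 0.345) for Kif11, 0.46 (SE 0.316) for Nusap1, which bundles spindle microtubules, and 0.36 (SE 0.254) for Dlgap5, which stabilises the fibres at the kinetochore. Each was higher in 31D3, 50I1 and 52I4 and lower in 32D1 and 37I1.

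Of the cytokinesis genes, Prc1, which bundles the microtubules of the central spindle, had 8.23, 9.21, 8.08, 9.67 and 9.31 in the total tumours, against 6.96, 9.84, 8.68, 8.61 and 8.14 in the biopsies. Ect2, the exchange factor that activates RhoA at the division site, had 7.51, 8.80, 7.18, 9.24 and 8.71 in the total tumours, against 5.84, 9.55, 7.91, 7.90 and 7.29 in the biopsies. Prc1 was higher by 0.45 on average (SE 0.354) and Ect2 by 0.59 (SE 0.438), the third largest mean of the set. Racgap1 and Kif23, the pair that forms centralspindlin, had mean differences of 0.37 (SE 0.333) and 0.25 (SE 0.311), and Kif20a, a kinesin of the midzone, one of 0.38 (SE 0.347). The 5 genes together differed by 1.23, -0.57, -0.76, 1.03 and 1.11 in 31D3, 32D1, 37I1, 50I1 and 52I4.

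At the kinetochore, Spc25, a subunit of the Ndc80 complex that grips microtubules, had a mean difference of 0.54 (SE 0.352), and Cenpf, a large protein of the outer kinetochore, one of 0.34 (SE 0.373) that was 0.065 without 31D3. Kif2c, a kinesin that shortens microtubules at the centromere, did not share the pattern. Its log2 signal was 7.73, 8.63, 7.73, 8.28 and 8.08 in the total tumours, against 8.35, 8.31, 8.41, 8.35 and 7.48 in the biopsies. It was lower in the total tumour in 31D3, 37I1 and 50I1, by -0.62, -0.68 and -0.07, and higher in 32D1 and 52I4, by 0.32 and 0.60. The biopsy of 31D3, the lowest biopsy for the other 30 genes, was level with 3 of the other biopsies for Kif2c. Its second probe set gave differences of the same sign in all 5 tumours. The platform annotation places both probe sets in Kif2c, and their sequences were not checked here. Its mean difference of -0.09 (SE 0.214) was 0.042 without 31D3, 0.055 without 37I1 and 0.077 with array weights in limma. Without Kif2c the mean of the other 30 genes differed by 0.39 (SE 0.42).

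Foxm1, the transcription factor that activates many of these genes, had the sign of their mean in 4 of 5 tumours. It had log2 signals of 6.21, 6.67, 6.21, 7.29 and 6.88 in the total tumours, against 6.21, 7.31, 6.73, 6.55 and 6.39 in the biopsies. The pair of 31D3, in which the 31 genes were higher by 1.15 on average, was level for Foxm1, with a difference of -0.0027. Its mean difference was 0.01 (SE 0.227; adjusted p = 0.995 in limma), with -0.17 without 50I1 and -0.10 without 52I4, and its second probe set, with a mean signal of 4.31, lay under the limit.

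**Figure D4:**
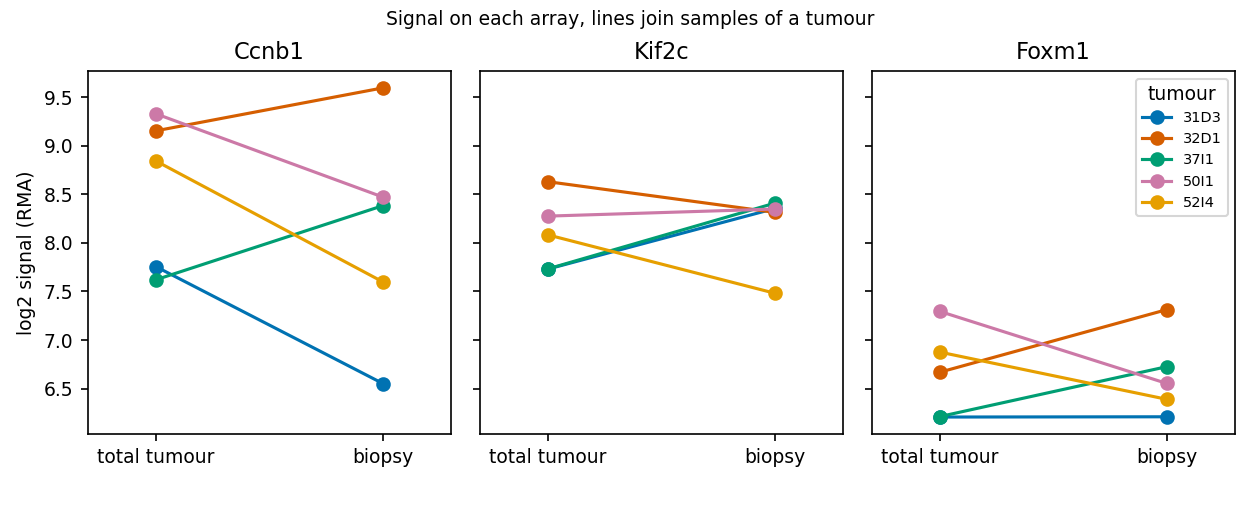
Log2 signal (y axis) of Ccnb1, Kif2c and Foxm1 in the total tumour and the biopsy (x axis), with 1 line for each tumour. The lines of Ccnb1 stand for the common pattern, those of Kif2c lie within 7.48 and 8.63, and that of 31D3 is flat for Foxm1.

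Probe sets of one gene gave differences of the same sign, though not always of like size, where they were bright enough. Of the 31 genes, 11 had more than 1 probe set, which gave 15 besides those used. Of these, 9 lay above the limit, and all 9 had the same sign as the first in each of the 5 tumours. Of the 6 under the limit, 3 did. In 31D3 the difference of Kif23 was 0.84 with its first probe set and 0.02 with its second, and that of Kif11 was 1.17 and 0.43.

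Other genes of mitosis, 92 by list, had the same order of signs with smaller differences. Of the 73 tested, 66 had a mean difference above 0, 0 passed the test in either direction, and 59 (80.8%) showed the pattern of the 29 genes in all 5 tumours. Their mean differed by 0.67, -0.51, -0.43, 0.61 and 0.65 in 31D3, 32D1, 37I1, 50I1 and 52I4, with a mean of 0.20 (SE 0.27). The largest mean differences were those of the kinetochore genes Cenpw (0.55, SE 0.471) and Spc24 (0.53, SE 0.361) and of Cdca3 (0.53, SE 0.358), a factor that promotes mitotic entry. The smallest were those of Wee1 (-0.36, SE 0.156), the kinase that holds Cdk1 inactive, Mad2l2 (-0.24, SE 0.133), a relative of Mad2l1 that acts in DNA repair, and Sass6 (-0.18, SE 0.14), a centriole protein. Wee1 was lower in the total tumour in 4 of 5 tumours, all but 32D1 (adjusted p = 0.838 in limma).

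Genes of DNA replication were tested 41 of 46, with 39 above 0 on average and 0 past the test in either direction. They differed by 0.63, -0.49, -0.18, 0.66 and 0.71 in the 5 tumours in the same order, with a mean of 0.26 (SE 0.25). The pattern in all 5 tumours was shown by 27 (65.9%). In 37I1, where all 31 mitosis genes were lower, 10 of the 41 replication genes were higher. The largest mean differences were those of E2f1 (0.56, SE 0.207), Gins1 (0.49, SE 0.351) and Mcm5 (0.47, SE 0.294), a transcription factor of S phase and parts of the replicative helicase. The smallest were those of Mcm7 (-0.04, SE 0.126), another part of that helicase, Ung (-0.04, SE 0.101), which removes uracil from DNA and which was at 0.0012 with arrays centred on their medians, and Dut (0.03, SE 0.206), which clears dUTP and was at -0.34 as the mean of its probe sets.

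Among the regulators of these promoters the mean difference went both ways. Of 20 tested activators and repressors, 10 had a mean difference above 0 and 10 below, 0 passed the test and 4 (20%) had the pattern in all 5 tumours, and the list differed by 0.07, -0.27, 0.07, 0.25 and 0.02 in 31D3, 32D1, 37I1, 50I1 and 52I4. The activators E2f1 and Mybl1 were highest on average (0.56 and 0.43), followed by E2f8 (0.24), a repressor of S phase genes. Mybl2, which encodes B-Myb, had the pattern in all 5 tumours, with differences of 0.39, -0.82, -0.30, 0.86 and 0.71 in the same order and a mean of 0.17 (SE 0.262; adjusted p = 0.94 in limma). The lowest were Nfyb (-0.31, SE 0.0912; adjusted p = 0.657 in limma), a subunit of NF-Y that was lower in 5 of 5 tumours, Rbl2 (-0.24, SE 0.202), and Myc (-0.19, SE 0.13), a growth-promoting transcription factor. The NF-Y subunits Nfya and Nfyc, with mean differences of -0.10 and 0.02, were each higher in 2 tumours. Rbl2, the pocket protein of DREAM in resting cells, had the opposite sign to the mean of the mitosis genes in every tumour, with differences of -0.37, 0.29, 0.31, -0.56 and -0.87 in the same order. Of the related pocket proteins, Rbl1 had the sign of that mean in all 5 tumours, with 0.49, -0.48, -0.18, 0.55 and 0.38, and Rb1 in 3. The MuvB genes Lin9, Lin37, Lin52 and Lin54 had that sign in 3, 1, 1 and 4 tumours.

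**Figure D5:**
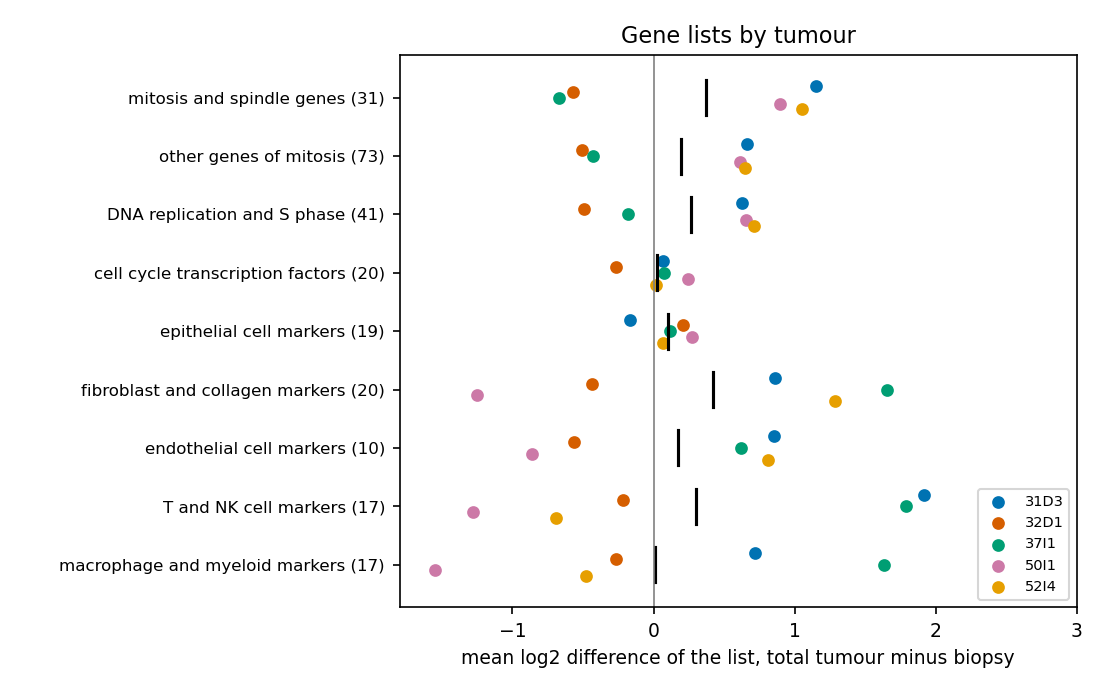
Mean log2 difference, total tumour minus biopsy (x axis), of gene lists (y axis, with the number of genes tested), with a coloured point for each tumour and a black bar for the mean of the 5. Replication genes and other genes of mitosis follow the order of signs of the mitosis and spindle genes, and none of the cell type marker lists has these signs in all 5 tumours.

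Levels of cell type markers also differed between the samples. Epithelial markers, 19 of 20 measured and all above the limit, lay between 10.81 and 11.22 in the total tumours and between 10.825 and 11.10 in the biopsies, as fits the mammary tumour label. They differed by -0.17, 0.21, 0.12, 0.27 and 0.07 in 31D3, 32D1, 37I1, 50I1 and 52I4. Fibroblast and collagen markers, 20 of 20 measured, lay between 9.85 and 10.86 in the total tumours and between 8.19 and 11.12 in the biopsies, with differences of 0.86, -0.44, 1.66, -1.25 and 1.29. Endothelial markers, 10 of 12, differed by 0.85, -0.56, 0.62, -0.86 and 0.81. Both lists thus had the sign of the mitosis genes in 31D3, 32D1 and 52I4 and the opposite sign in 37I1 and 50I1. T and NK cell markers, 17 of 20, lay between 6.06 and 9.01 in the total tumours and between 5.15 and 7.34 in the biopsies, with differences of 1.91, -0.21, 1.79, -1.28 and -0.69. Macrophage markers, 17 of 18, differed by 0.72, -0.27, 1.63, -1.55 and -0.48. Adipocyte markers, 8 of 14 above the limit, lay between 6.46 and 7.66 in the total tumours and between 5.93 and 6.83 in the biopsies. They differed by 0.15, 0.22, 1.73, -0.37 and 1.19 in the same order, while Adipoq and Plin1 lay under the limit. Skeletal muscle markers, 6 of 16, differed by 0.15, -0.06, -0.68, -0.70 and 0.02, the sign of the mitosis genes in 4 of 5 tumours, and Ckm, Mb and Myh4 lay under the limit. In 37I1 and 50I1 Acta1 alone differed by -2.45 and -3.38, and 2 of the 6 genes were higher in each. Of the B cell markers only 3 of 12 lay above the limit, and Cd79b and Ms4a1 lay under it. The part of these cells in the levels of the mitosis genes was not tested.

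Log2 signals on the arrays lay between 2.34 and 14.26, array medians between 5.99 and 6.11, and correlations between arrays between 0.952 and 0.989. The total tumours differ from the biopsies also in age and in how the tissue was taken, and array numbers follow one another within a group, so such causes and the group cannot be told apart. Each tumour has 1 array at each moment, so the difference of a single tumour has no replicate error. Whether each tumour came from a rat of its own is not stated in the labels.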

How the data were processed

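The authors deposited 1 table of log2 signal for 10 arrays, normalized by RMA (Robust Multichip Average) according to the submitters' processing notes. RMA puts all arrays on 1 distribution, so a shift shared by most transcripts is removed. That the scale is log2 follows from the range of the values. No RMA version or chip definition was found, and the series text names GeneSpring GX 7.3 for the statistics.

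Of 31099 probe sets, 57 controls were left out. The other 31042 had 1 gene in 20826 cases and several in 436, from which no gene was named. The dimmest 40% were left out, which left 18625 probe sets and 10793 genes. The comparison, total tumour minus biopsy, was fitted by lmFit and eBayes of limma 3.58.1 under R 4.3.3, the tumour being a block, since the study used a paired test and the labels name the tumour. Adjustment followed Benjamini-Hochberg across the tested probe sets, and the threshold was 0.05. Deviations from the group means correlated above 0.1 in 4 of 5 pairs. In the pair of 50I1 the correlation was negative, at -0.21, so these deviations do not bear out that pairing. Means over the genes of a list are descriptions without a test. Promoters came from RefSeq. The fit was tested on simulated data. The genes and the lists were chosen with earlier results of these data known. Values on every array are given for 12 genes fixed by name and for those with the 3 largest, 3 smallest and lowest-p differences, and other lists are named by their 3 largest and 3 smallest. Nusap1, Mybl2, Rbl1, Rb1, the Lin genes, Nfya, Nfyc, the Cdkn genes, Acta1 and the exceptions in the orders of tumours were named after their values were seen. Leaving out Kif2c was added then too. The number of arrays limits the precision.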

Additional observations from a re-analysis of the deposited data

Results flagged for a closer look

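Kif2c in the biopsy of 52I4, at 7.48, lay far from the other 4 biopsies, which spanned 8.31 to 8.41. The mean of the T and NK cell markers in the biopsy of 37I1, at 5.15, lay far from the other 4, which spanned 6.84 to 7.34. These were 2 of 92 groups of 5 samples examined for such a gap, and chance gives about 1 in 20.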

How the results depend on the processing

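The count of probe sets past the threshold, and that of the mitosis genes, was 0 in the paired fit and 0 with no replicate block, with no filter, with a stricter filter on dim probe sets, with the paired test that the study names, with trend, array weights, quantile normalization or median centring, and with any tumour left out. The mean difference of the mitosis genes ranged from 0.36 to 0.41 under other filters, scalings and summaries and without Kif2c, and from 0.18 to 0.63 with a tumour left out. Array weights were not run for this mean. With them every gene of the set lay above its value in the paired fit, such as Cdk1 at 0.66 against 0.46 and Mki67 at 0.34 against 0.22. From 29 to 31 of the 31 genes were above 0 on average, and 28 of 29 with the stricter filter. With a tumour left out, Mki67 ranged from -0.061 to 0.54, Ccnb2 from -0.036 to 0.53, Foxm1 from -0.17 to 0.18, Kif2c from -0.26 to 0.055, Mcm7 from -0.16 to 0.031, Ung from -0.092 to 0.0089 and Dut from -0.090 to 0.18, each turning sign. With the mean of probe sets Foxm1 was -0.019 and Dut -0.34, and with median centring Ung was 0.0012. The cause was not tested. With array weights Kif2c was 0.077. The other genes for which these settings were run kept their sign with the mean of probe sets, both scalings, no replicate block and any tumour left out. They were run for the set and for the genes named by rule. Other filters, trend and array weights were run for genes of the set, where no other gene turned.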

Other observations

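Genes linked to rest or to arrest of the cell cycle include the inhibitors of cyclin-dependent kinases and the Foxo factors. As a list they had the sign of the mitosis genes in 2 of 5 tumours. The pattern in all 5 tumours was shown by 2 genes (11.1%), the inhibitors Cdkn1c and Cdkn2d, and by 5.96% of all genes. Of 18 tested, 10 had a mean difference above 0 and 8 below, 0 passed the test, and the list differed by 0.22, 0.07, 0.07, -0.03 and 0.16 in 31D3, 32D1, 37I1, 50I1 and 52I4. The inhibitors Cdkn1a and Cdkn2a were higher in the total tumour in all 5 tumours. Their mean differences were 0.45 (SE 0.12; adjusted p = 0.642 in limma) and 0.84 (SE 0.444; adjusted p = 0.846 in limma). Cdkn1b, Cdkn2b and Cdkn2c were higher in 2, 3 and 2 tumours. Erythroid genes, of which 4 were tested, differed by 0.85, 1.61, 0.17, 0.50 and -0.07 in the same order, and mast cell markers, 9 of 9, by -0.50, -0.24, -0.64, -1.17 and -1.18.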
